A study of Homo sapiens with 24 samples.

Results

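The transcripts described here encode the constitutive proteasome, with its assembly chaperones, activators and inhibitor. The list holds 42 genes, and a gene was measured where a probe set of the array named it and no other gene. That left 38 of the 42 genes, out of 18132 genes measured in this way on the array. PSMA6 was named only by a probe set that also names another gene, and PSMC5, PSMD7 and PSMD13 were not analysed here. Where several probe sets named a gene, the one with the highest mean over all 24 arrays was used.

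The proteasome degrades proteins that carry ubiquitin chains. Its barrel-shaped core is built from rings of alpha and beta subunits, and the beta subunits PSMB5, PSMB6 and PSMB7 cut the substrate inside the barrel. A regulatory particle caps the core: its base holds a ring of ATPases that unfold the substrate, and its lid holds PSMD14, which removes the ubiquitin chain. Dedicated chaperones assemble the core and the base, and other caps, the activators, can replace the regulatory particle. When proteasome activity falls short, the transcription factor NFE2L1 (also called NRF1) is known to raise the subunit genes together. Drugs that block the catalytic subunits are used against multiple myeloma.

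The arrays came from a pair of established human renal cell carcinoma lines, 12 from Caki-1 and 12 from 769-P. In each line, 3 arrays came from cells given DMSO, the solvent, and 3 each from cells given 1 µM dasatinib, which blocks ABL and SRC-type kinases, and sampled after 6, 12 or 24 h. No label gives a time for the DMSO arrays, so the same 3 arrays were the control at every time in a line, and time in the drug and time in culture cannot be told apart. The arrays of a group are labelled as biological replicates but nothing says they came from separate cultures, so the p-values measure only the spread between these samples.

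A value is a log2 signal, on which a difference of 1 is a doubling of signal. A change is the mean of 3 treated arrays minus the mean of the 3 DMSO arrays, given ± SE. A gene is said to rise or fall where the limma test gave an adjusted p under 0.05 over all genes tested. Probe sets differ in brightness, so levels are compared between groups and not between genes. In bulk RNA, fewer cells of a kind and less RNA per cell cannot be told apart.

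Array medians lay between 6.01 and 6.08, and no array was left out. Of the renal markers, PAX8 (10.001 ± 0.13 in Caki-1 and 9.79 ± 0.10 in 769-P under DMSO, mean ± SD, n = 3), KRT18 (12.25 and 12.49), KRT8 (10.02 and 10.30), VIM (14.73 and 14.87) and CDH6 (10.80 and 8.69) lay well above the array medians in both lines. EPCAM was at 5.02 in Caki-1 and 8.51 in 769-P, and PAX2 (5.71 and 6.42) and KRT19 (5.57 and 5.65) lay close to or below the medians in both. PTPRC, a leukocyte marker, was at 3.43 and 3.39 under DMSO. The 5 leukocyte markers with a probe set summed to 399 to 427 signal units in Caki-1 under DMSO and 473 to 525 at 24 h, against 454 to 558 and 540 to 547 in 769-P, and of 3 tested in Caki-1 CD68 rose and CD14 fell. Fibroblast markers moved in Caki-1: DCN, LUM and COL1A1 rose by 24 h, PDGFRB did not pass the test, and the summed signal of the 5 genes went from 271 to 284 under DMSO to 578 to 648, while in 769-P it went from 155 to 174 to 159 to 163. Of 2 endothelial markers tested in Caki-1, PECAM1 rose, and the 5 with a probe set summed to 178 to 191 under DMSO and 234 to 293 at 24 h, and to 182 to 196 and 199 to 208 in 769-P. No marker was listed at 0, and the part of these markers in the results was not tested.

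The Caki-1 array of replicate 1 at 12 h had a median change of the 38 genes of -0.11 from the DMSO mean, where replicates 2 and 3 had -0.36 and -0.37. The gap between 3' and 5' control probe sets is a sign of RNA or labelling quality. It was widest on the 769-P array of replicate 1 at 24 h, at 4.07 for ACTB and 0.52 for GAPDH. The median change of this array from the DMSO mean was -0.33, against -0.47 and -0.41 on the other 24 h arrays. In 769-P, replicate 1 had the highest median signal of the 38 genes in every group, at 11.76 under DMSO against 11.62 and 11.59. At 24 h these medians were 11.129, 11.085 and 11.126 for replicates 1, 2 and 3. Changes from the shared DMSO mean therefore do not rank the falls of the 3 arrays. The ACTB gap was 3.10 and 3.22 on replicates 2 and 3 at 24 h in 769-P. The mean of this group was 3.46, where the means of the other groups ran from 2.74 to 2.99. The part of this measure in the results was not tested. For replicate 1 the values without it are given where they differ.

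The promoters of 6 genes are shown because these genes, from different parts of the complex, are followed array by array below: PSMA3 of the alpha ring, PSMD2 of the base, PSMD14 of the lid, PSMG1 of the core chaperones, and the activators PSME3 and PSME1. Each line is the 250 bases before the first listed start of the gene, 5' to 3' on the strand of the gene, from RefSeq on GRCh38.p14. The windows are PSMA3 at chr14:58244593-58244842 on the plus strand, PSMD2 at chr3:184298991-184299240 on the plus strand, PSMD14 at chr2:161308175-161308424 on the plus strand, PSMG1 at chr21:39183452-39183701 on the minus strand, PSME3 at chr17:42833147-42833396 on the plus strand, PSME1 at chr14:24135944-24136193 on the plus strand. Capitals mark matches, on either strand, to TGACNNNGC (the core of the antioxidant response element, which NFE2L1 and NFE2L2 are known to bind), CCAAT (the box known for NF-Y), CACGTG (the E-box known for MYC and MAX) and CCGGAAG (a core known for ETS factors).
PSMA3: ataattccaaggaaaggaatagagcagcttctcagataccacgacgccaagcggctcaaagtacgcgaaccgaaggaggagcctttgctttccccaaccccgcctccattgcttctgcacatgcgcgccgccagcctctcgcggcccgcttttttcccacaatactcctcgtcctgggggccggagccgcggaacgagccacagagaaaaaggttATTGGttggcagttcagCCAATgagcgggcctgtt
PSMD2: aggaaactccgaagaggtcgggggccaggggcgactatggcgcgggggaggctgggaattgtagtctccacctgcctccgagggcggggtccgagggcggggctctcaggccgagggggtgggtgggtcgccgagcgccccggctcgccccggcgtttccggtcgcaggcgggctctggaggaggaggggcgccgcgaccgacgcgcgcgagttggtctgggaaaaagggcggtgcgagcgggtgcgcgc
PSMD14: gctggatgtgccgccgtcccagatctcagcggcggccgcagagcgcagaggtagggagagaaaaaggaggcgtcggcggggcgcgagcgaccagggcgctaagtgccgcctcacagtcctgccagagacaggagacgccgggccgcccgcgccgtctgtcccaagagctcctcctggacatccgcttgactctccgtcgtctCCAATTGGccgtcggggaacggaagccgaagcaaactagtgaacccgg
PSMG1: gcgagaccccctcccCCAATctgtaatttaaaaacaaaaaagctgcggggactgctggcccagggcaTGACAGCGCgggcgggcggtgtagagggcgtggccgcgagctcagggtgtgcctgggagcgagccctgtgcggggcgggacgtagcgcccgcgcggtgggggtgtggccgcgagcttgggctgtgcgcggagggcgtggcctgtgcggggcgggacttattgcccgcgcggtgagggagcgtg
PSME3: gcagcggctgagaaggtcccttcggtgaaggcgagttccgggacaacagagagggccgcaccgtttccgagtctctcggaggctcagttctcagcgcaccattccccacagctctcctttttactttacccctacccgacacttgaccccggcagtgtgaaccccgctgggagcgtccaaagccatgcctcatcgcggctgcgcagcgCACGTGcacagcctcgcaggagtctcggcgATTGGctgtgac
PSME1: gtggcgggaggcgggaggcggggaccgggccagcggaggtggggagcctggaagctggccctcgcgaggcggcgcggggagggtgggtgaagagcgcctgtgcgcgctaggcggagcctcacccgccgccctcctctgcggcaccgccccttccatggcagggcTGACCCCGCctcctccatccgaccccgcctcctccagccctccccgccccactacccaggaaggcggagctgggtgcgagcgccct

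Of these windows, the one of PSMD14 holds CCAAT 48 bases before the start and again, overlapping it on the other strand, 45 bases before. PSMA3 has CCAAT at 35 and 18 bases, and PSME3 has CCAAT at 12 and CACGTG at 42 bases. PSMG1 has TGACNNNGC at 183 and CCAAT at 235 bases, PSME1 has TGACNNNGC at 86 bases, and the window of PSMD2 holds none of these motifs. Promoters were listed for 33 of the 38 measured genes, the others being PSMA7, PSMB1, PSMB6, PSMB7 and PSMD4. TGACNNNGC was found in 11 of the 33 (33.3%), among them PSMA4, PSMB3, PSMD3 and PSMD12, and in 13.2% of the 27305 genes with a listed promoter. CCAAT was found in 15 (45.5%, all genes 37%), CCGGAAG in 9 (27.3%, all genes 10.2%) and CACGTG in 3 (9.09%, all genes 7.73%). A gene with several starts counts once if any window holds the motif, and a match is a description of letters and not of a bound site.

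By 24 h of dasatinib nearly every measured proteasome gene was lower in Caki-1, and most were lower in 769-P. In Caki-1, 34 of 38 genes fell and 1, PSME1, rose, with a median change of -0.69. In 769-P, 31 fell and PSME1 alone rose, with a median change of -0.39. Over all genes tested the background was 29.9% lower and 32.9% higher in Caki-1, 24.6% lower and 31.1% higher in 769-P, and the median changes were 0.08 and 0.04. With each array centred on its 75th percentile, the split of all called genes in Caki-1 moved from 4085 higher and 3716 lower to 5270 and 3171, and 33 proteasome genes still counted as lower.

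The fall built up over time. At 6 h in Caki-1, 3 genes fell (background 14%) and 1 rose (background 12.3%), with a median of 0.01. At 12 h, 27 fell (background 24.4%) and 1 rose (background 24.1%), with a median of -0.25. In 769-P at 6 h, 3 fell (background 14.5%) and 5 rose (background 16.4%), with a median of 0.05, and at 12 h, 11 fell (background 22.6%) and 5 rose (background 24.9%), with a median of -0.11. The 5 genes higher in 769-P at 6 h became 8 without the DMSO array of replicate 1, 1 and 2 without those of replicates 2 and 3, and 3 and 2 without the 6 h arrays of replicates 1 and 2. The 5 higher at 12 h became 3 without the DMSO array of replicate 2 or 3 or the 12 h array of replicate 1 or 2. In Caki-1 at 6 h, the 1 gene higher became 0 without the DMSO array of replicate 3, and 3 without the 12 h array of replicate 1, which enters through the shared spread. At 6 h the counts on all arrays were a smaller share of the 38 genes than the background in both lines, and at 12 h the count lower in 769-P was close to it.

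Comparing 24 h directly with 6 h, which uses no DMSO array, 35 genes were lower in Caki-1 (background 25.6%) and 1 was higher (background 28.1%). In 769-P, 34 were lower (background 18.5%) and none was higher by limma (background 25.8%). There the one positive difference was that of PSMF1, at 0.20 ± 0.08 (adjusted p = 0.0701). With the mean of its probe sets this became -0.18 (adjusted p = 0.0403). The group means fell in order from 6 to 12 to 24 h for 36 of the 38 genes in Caki-1, and for 33 of them in 769-P. No share over all genes was computed for this order, so it is not shown to be particular to these genes. The 24 h arrays lay wholly below the DMSO arrays for 36 genes in Caki-1 (background 30.9%) and 31 in 769-P (background 26.6%).

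**Figure D1:**
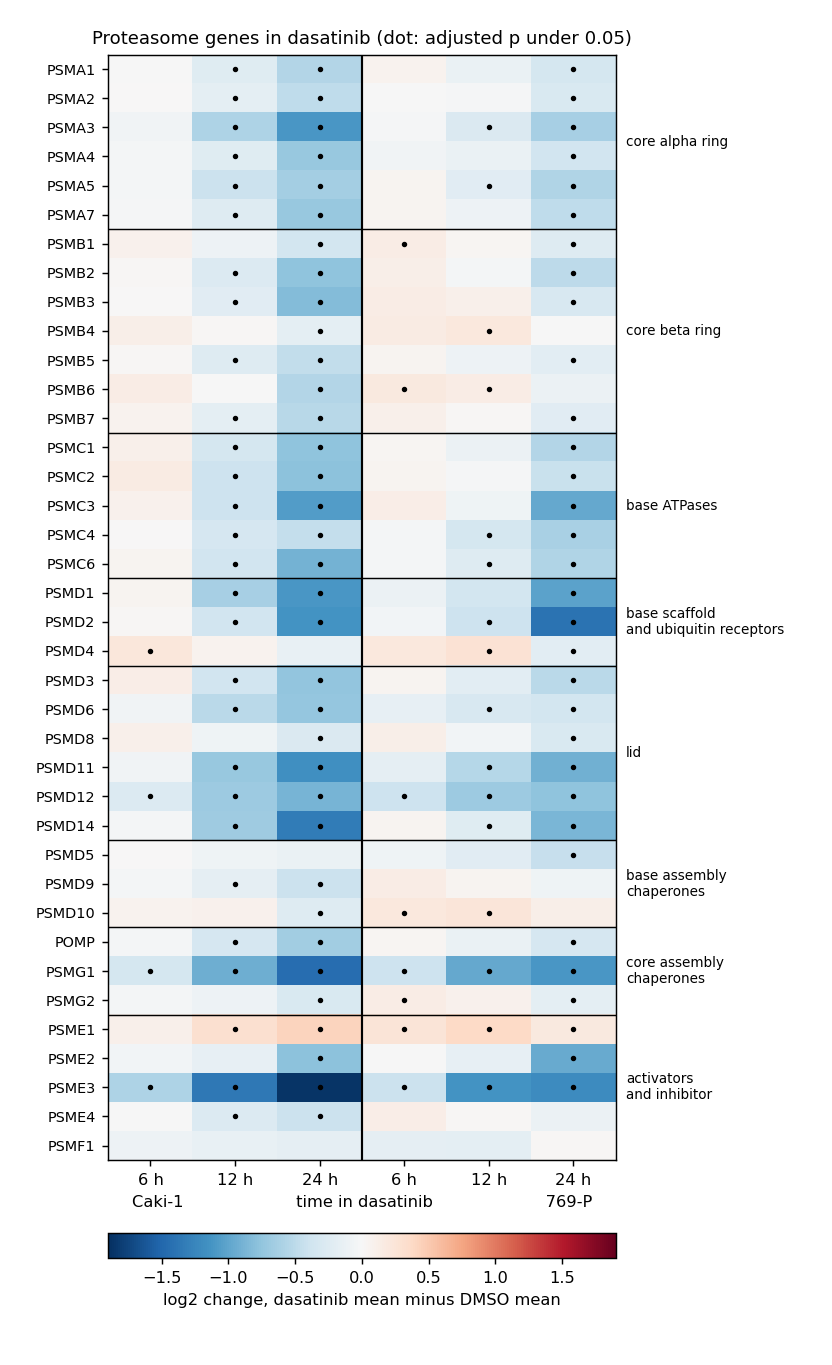
Heat map of the log2 change from DMSO for each of the 38 measured genes (rows, grouped by part of the complex) at 6, 12 and 24 h in Caki-1 (left) and 769-P (right); blue is lower, red is higher, and a dot marks an adjusted p under 0.05. The 24 h columns are blue in almost every row, and PSME1 is red at every time in both lines.

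Most of the measured genes fell in both lines. At 24 h, 29 genes fell in both, which is 76.3% of the 38. Over the 11913 genes tested in both lines the share was 19.2%. As 34 of the 38 fell in Caki-1 and 31 in 769-P, most of this overlap follows from those counts alone. PSMB4, PSMB6, PSMD9, PSMD10 and PSME4 fell in Caki-1 without passing the test in 769-P, and the difference between the lines passed its own test for these except PSMB4 (adjusted p = 0.0982). PSMD4 and PSMD5 fell in 769-P without passing in Caki-1; the difference passed for PSMD5 (adjusted p = 0.032) and not for PSMD4 (adjusted p = 0.645). With the mean of all probe sets the difference no longer passed for PSMD5 (adjusted p = 0.1044), PSMD9 (-0.21, adjusted p = 0.0792) and PSMD10 (-0.09, adjusted p = 0.4498), and with arrays centred on their 75th percentile it no longer passed for PSME4 (-0.20, adjusted p = 0.1381). Across the 38 genes the 24 h changes of the lines, which share no array, had a Pearson correlation of 0.85 and a Spearman correlation of 0.85, over genes that are not independent replicates. No correlation over all genes is given to set beside it, so it is not shown to be particular to these genes. Across genes, the level under DMSO and the change had Pearson correlations of -0.11 in Caki-1 and 0.02 in 769-P. Levels of different probe sets are not comparable, and the change subtracts the same DMSO means. These values therefore cannot show whether the starting level matters.

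**Figure D2:**
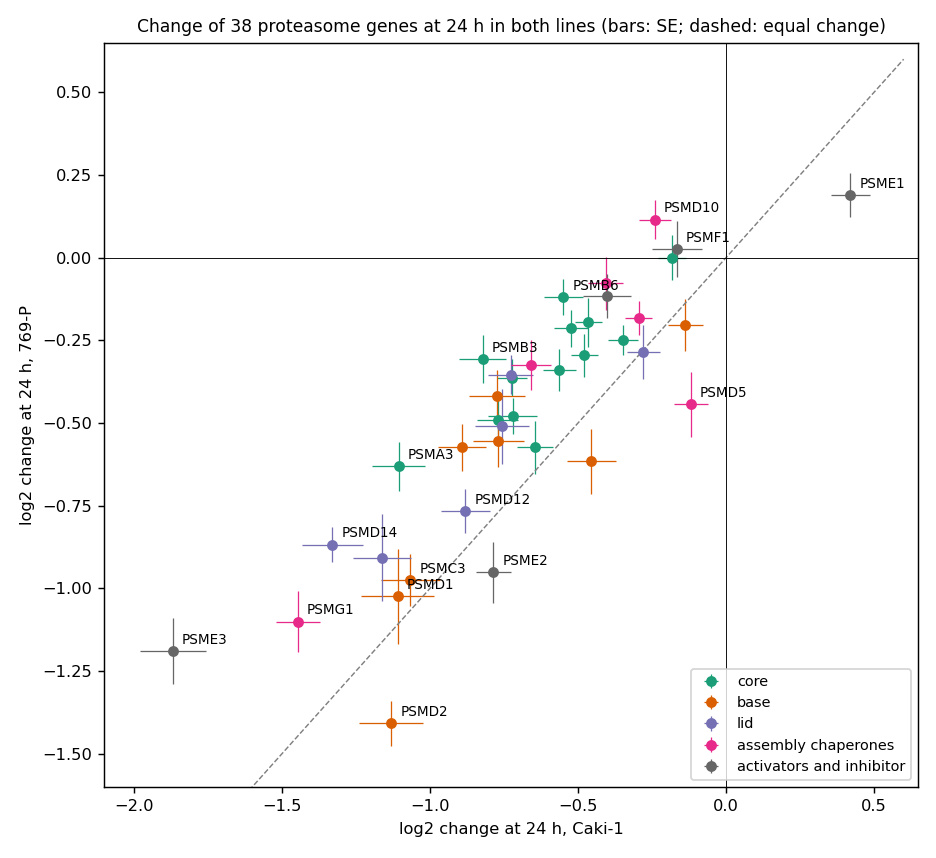
Log2 change at 24 h in Caki-1 (horizontal axis) against 769-P (vertical axis) for the 38 genes, coloured by part of the complex, with SE bars; the dashed line is an equal change. Most points lie above the dashed line, where the fall is larger in Caki-1, and of the 7 points below it PSMD5 and PSMD2 lie furthest.

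Among the parts of the complex, medians at 24 h were lowest for the base and lid. The 8 base genes had medians of -0.83 (Caki-1) and -0.59 (769-P), the 6 lid genes -0.82 and -0.64, and the 13 core genes -0.56 and -0.31. The 6 chaperones had -0.35 and -0.25 and the 5 activator and inhibitor genes -0.40 and -0.12. These groups overlap gene by gene, and the difference between them was not tested.

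**Figure D3:**
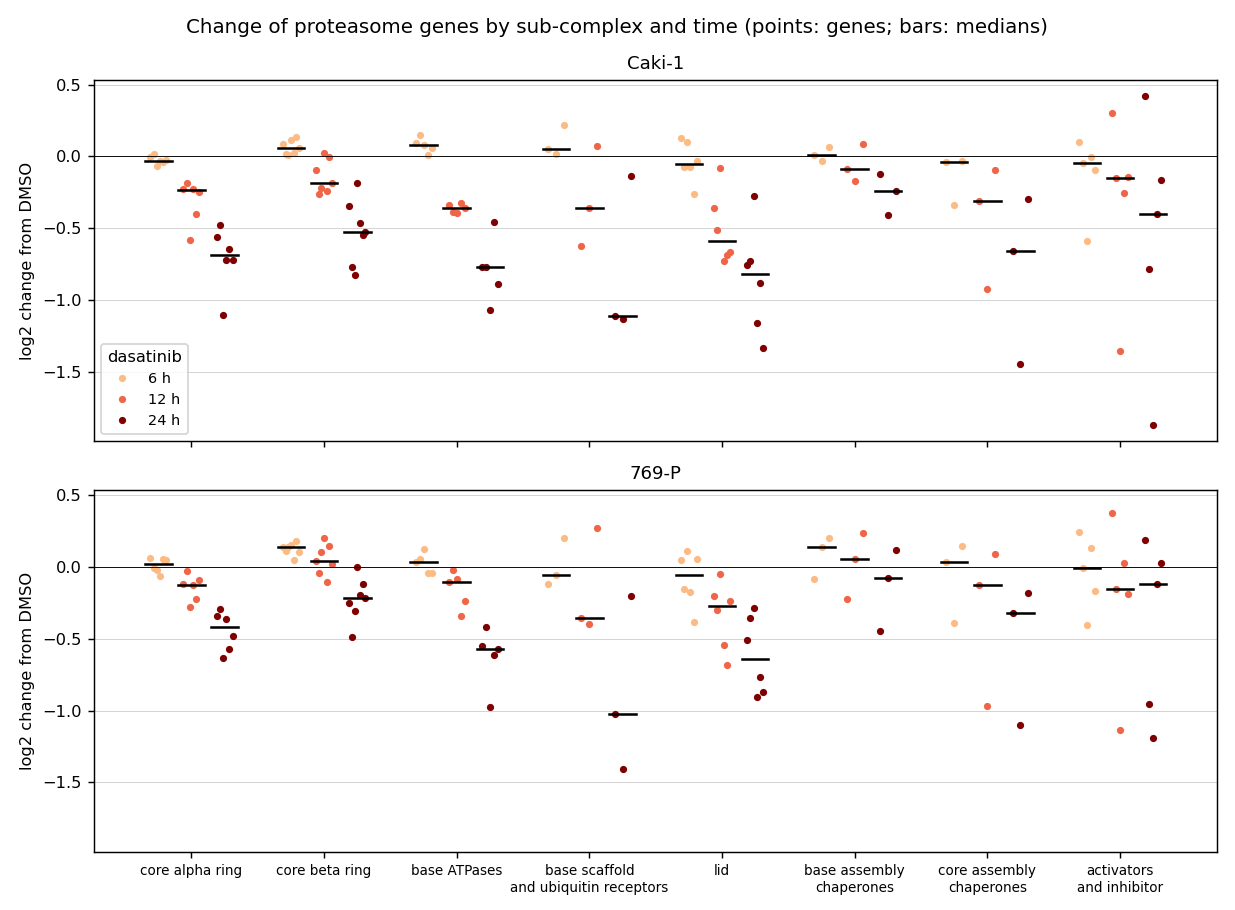
Log2 change from DMSO (vertical axis) of each gene (points) by part of the complex, at 6, 12 and 24 h (light to dark) in Caki-1 (top) and 769-P (bottom); bars are medians. The medians step down with time except for the activators in 769-P, to -1.11 and -1.02 at 24 h for the base scaffold and ubiquitin receptors, and the spread at 24 h is widest among the activators.

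In the alpha ring, which gates the core, all 6 measured genes (PSMA1 to PSMA5 and PSMA7) fell at 24 h in both lines, with medians of -0.68 and -0.42. PSMA3 had the largest change. In Caki-1 its signals were 12.11, 12.16 and 12.16 under DMSO, 12.09, 12.11 and 12.04 at 6 h, 11.84, 11.38 and 11.47 at 12 h, and 11.14, 11.01 and 10.97 at 24 h. The 769-P signals were 12.03, 11.83 and 11.72 under DMSO, 11.87, 11.86 and 11.78 at 6 h, 11.66, 11.54 and 11.54 at 12 h, and 11.32, 11.18 and 11.17 at 24 h. The 24 h arrays lay below every DMSO array in both lines. The change at 24 h was -1.11 ± 0.09 in Caki-1 (adjusted p = 4.38e-08) and -0.63 ± 0.08 in 769-P (adjusted p = 2.61e-06).

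The other alpha genes were closer to each other. At 24 h in Caki-1 they ran from -0.48 ± 0.04 for PSMA2 to -0.72 ± 0.05 for PSMA4 and -0.72 ± 0.08 for PSMA7, and in 769-P from -0.30 ± 0.07 for PSMA2 to -0.57 ± 0.08 for PSMA5. All 6 had already fallen at 12 h in Caki-1, where the range was -0.18 to -0.58, while in 769-P PSMA3 and PSMA5 had. With arrays centred on their 75th percentile the Caki-1 calls of PSMA2 (-0.11, adjusted p = 0.078) and PSMA7 (-0.17, adjusted p = 0.0899) were lost, and that of PSMA5 in 769-P was lost with quantile normalization (-0.18, adjusted p = 0.054). The calls of PSMA7 and PSMA5 were also lost without the intensity trend (adjusted p = 0.0548 and 0.0751) and without any 1 of 4 arrays each (adjusted p up to 0.1173 and 0.1987). PSMA1 has a second, dimmer probe set, and with the mean of both its 769-P change at 24 h turned from -0.34 to 0.16 (adjusted p = 0.123).

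The beta ring carries the 3 catalytic subunits of the constitutive core. All 7 beta genes fell at 24 h in Caki-1 (median -0.52) and 5 of 7 in 769-P (median -0.21), without PSMB4 and PSMB6. PSMB5, the chymotrypsin-like subunit and the main target of proteasome inhibitor drugs, had signals in Caki-1 of 11.96, 11.99 and 11.98 under DMSO, 11.98, 12.02 and 11.99 at 6 h, 11.81, 11.67 and 11.73 at 12 h, and 11.47, 11.54 and 11.52 at 24 h. Signals in 769-P were 11.53, 11.34 and 11.32 under DMSO, 11.50, 11.37 and 11.45 at 6 h, 11.26, 11.33 and 11.29 at 12 h, and 11.34, 11.09 and 11.18 at 24 h. The 24 h and DMSO arrays were clear of each other in Caki-1, whereas the highest 24 h array of 769-P reached the DMSO range. PSMB5 changed by -0.46 ± 0.05 in Caki-1 (adjusted p = 4.445e-07) and by -0.20 ± 0.07 in 769-P (adjusted p = 0.034). The 769-P call was lost without the DMSO array of replicate 1 (-0.13, adjusted p = 0.163) or without either of the 24 h arrays of replicates 2 and 3 (adjusted p = 0.1645 and 0.0881). It was also lost with quantile normalization (-0.13, adjusted p = 0.1396) and without the intensity trend (adjusted p = 0.0656).

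PSMB6, the caspase-like subunit, rose at 6 and 12 h in 769-P and fell at 24 h in Caki-1. In Caki-1 its signals were 12.06, 12.04 and 11.99 under DMSO, 12.14, 12.19 and 12.17 at 6 h, 12.22, 11.93 and 11.93 at 12 h, and 11.52, 11.49 and 11.43 at 24 h. In 769-P they were 12.63, 12.47 and 12.48 under DMSO, 12.78, 12.68 and 12.67 at 6 h, 12.73, 12.65 and 12.64 at 12 h, and 12.44, 12.37 and 12.41 at 24 h. The 6 h arrays were above every DMSO array in both lines, and the rise passed the test in 769-P (0.18 ± 0.05, adjusted p = 0.0188) and not in Caki-1 (0.14 ± 0.07, adjusted p = 0.155). At 24 h the change was -0.55 ± 0.07 in Caki-1 (adjusted p = 3.62e-06) and -0.12 ± 0.05 in 769-P (adjusted p = 0.0781). With the replicate number as a block the 769-P value passed the test (-0.12, adjusted p = 0.0285). The 6 h call in 769-P was lost without the DMSO array of replicate 2 or 3 or the 6 h array of replicate 1 (adjusted p 0.0691 to 0.0879), and without the intensity trend (adjusted p = 0.0716). The 12 h rise in 769-P (0.15, adjusted p = 0.0368) was lost with arrays centred on their median (0.12, adjusted p = 0.0629), with no filter (adjusted p = 0.0551), without the trend (adjusted p = 0.1083), with all arrays in 1 fit (adjusted p = 0.0506), and without the DMSO array of replicate 2 or 3 or the 12 h array of replicate 1 or 2 (adjusted p 0.0579 to 0.1428).

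PSMB7, the trypsin-like subunit, had signals in Caki-1 of 12.64, 12.65 and 12.72 under DMSO, 12.70, 12.76 and 12.75 at 6 h, 12.65, 12.44 and 12.38 at 12 h, and 12.16, 12.17 and 12.11 at 24 h. Those in 769-P were 12.64, 12.60 and 12.52, then 12.79, 12.65 and 12.62 at 6 h, 12.64, 12.64 and 12.55 at 12 h, and 12.41, 12.40 and 12.31 at 24 h. Every 24 h array lay below every DMSO array in its line. The 24 h change was -0.52 ± 0.06 in Caki-1 (adjusted p = 1.63e-06) and -0.21 ± 0.06 in 769-P (adjusted p = 0.00421). The Caki-1 value came with unequal probe sets, as 1 of the 5 probe sets of PSMB7 did not go down there.

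PSMB3, a structural beta subunit, had the largest fall of the ring in Caki-1. Its signals were 12.86, 12.91 and 12.79 under DMSO, 12.87, 12.85 and 12.85 at 6 h, 12.85, 12.50 and 12.55 at 12 h, and 12.16, 12.00 and 11.93 at 24 h. The 769-P arrays gave 12.85, 12.72 and 12.64, then 12.98, 12.84 and 12.82 at 6 h, 12.90, 12.83 and 12.78 at 12 h, and 12.60, 12.34 and 12.35 at 24 h. The 24 h arrays were the lowest in both lines, and at 12 h in Caki-1 replicate 1 was still within the DMSO range. The 24 h change was -0.82 ± 0.08 in Caki-1 (adjusted p = 2.93e-07) and -0.31 ± 0.07 in 769-P (adjusted p = 0.00208). Of the remaining beta genes, PSMB2 changed by -0.77 ± 0.07 and -0.49 ± 0.06, PSMB1 by -0.35 ± 0.05 and -0.25 ± 0.05, and PSMB4 by -0.18 ± 0.05 in Caki-1, while it was at -0.00 ± 0.07 in 769-P. PSMB4 counts as lower in Caki-1, where that call was lost with arrays centred on their 75th percentile (-0.09, adjusted p = 0.1598).

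**Figure D4:**
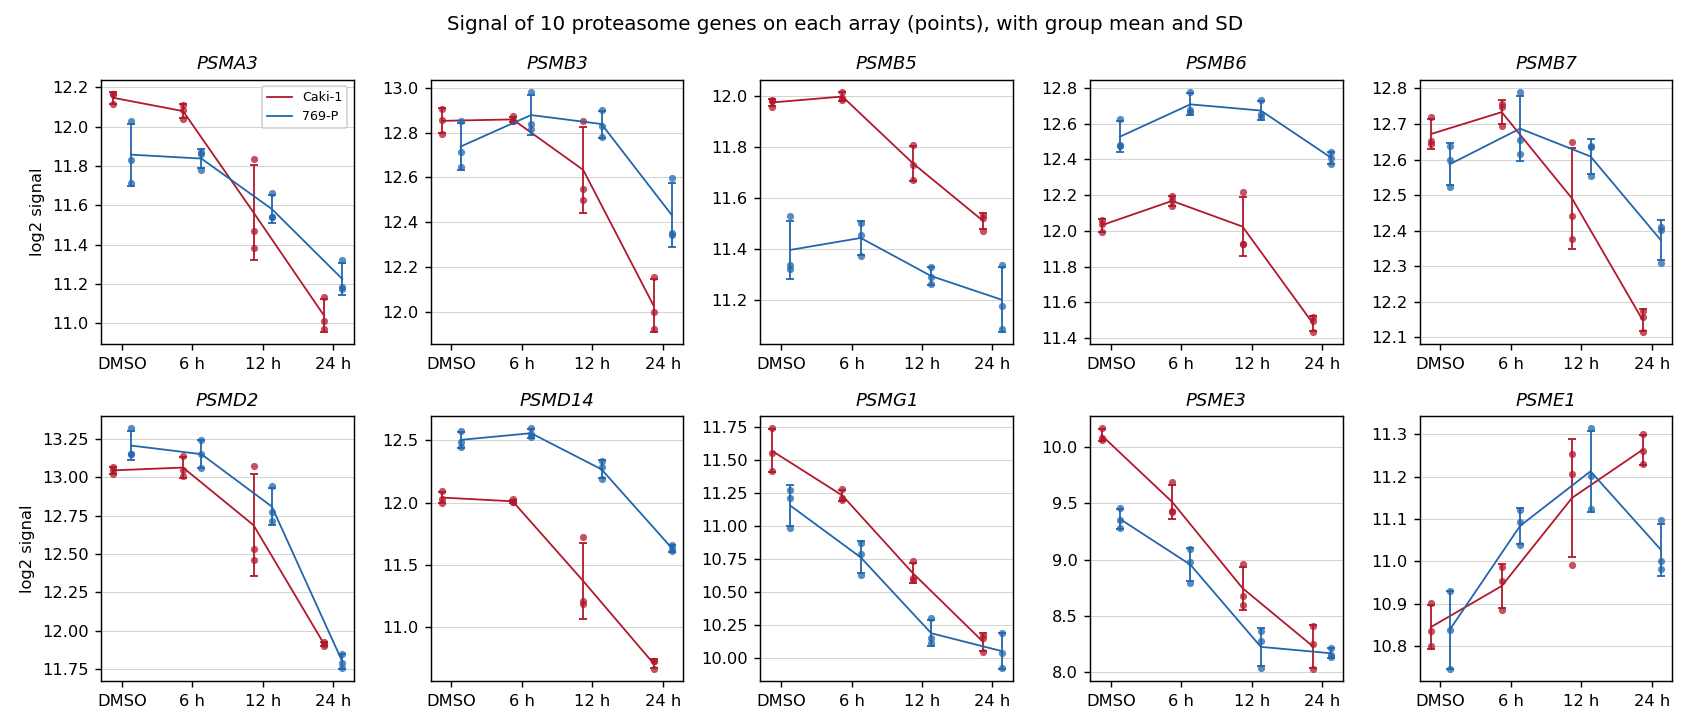
Log2 signal (vertical axis) of 10 genes on each array (points) under DMSO and after 6, 12 and 24 h of dasatinib, with group means joined by lines and SD bars, Caki-1 in red and 769-P in blue; each panel has its own axis range. PSMG1 and PSME3 step down from 6 h on, PSMB3, PSMB6 and PSMB7 drop more between 12 and 24 h than between 6 and 12 h, and PSME1 lies above its DMSO level at 24 h.

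In the base, the 5 measured ATPases PSMC1, PSMC2, PSMC3, PSMC4 and PSMC6 fell at 24 h in both lines, with medians of -0.77 and -0.57. PSMC3 changed most, by -1.07 ± 0.10 in Caki-1 (adjusted p = 2.3e-07) and -0.97 ± 0.08 in 769-P (adjusted p = 3.47e-08). In Caki-1 all 5 had fallen by 12 h within a narrow range, from -0.32 ± 0.08 for PSMC4 to -0.39 ± 0.10 for PSMC3. In 769-P at 12 h, PSMC4 (-0.34 ± 0.10) and PSMC6 (-0.24 ± 0.07) had fallen. PSMC2 in 769-P at 24 h (-0.42 ± 0.08) lost its call with the mean of its probe sets (-0.15, adjusted p = 0.0965). The same setting ended the 12 h calls of PSMC2 (-0.08, adjusted p = 0.4733) and PSMC6 (-0.17, adjusted p = 0.1039) in Caki-1 and of PSMC6 in 769-P (-0.12, adjusted p = 0.1654), the last being lost also without the 12 h array of replicate 2 (adjusted p = 0.0702).

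PSMD1 and PSMD2 are the large scaffold subunits of the base. For PSMD2 in Caki-1 the signals were 13.07, 13.02 and 13.05 under DMSO, 13.14, 13.05 and 13.01 at 6 h, 13.07, 12.46 and 12.53 at 12 h, and 11.91, 11.90 and 11.93 at 24 h. The 769-P signals were 13.32, 13.15 and 13.15 under DMSO, 13.24, 13.15 and 13.06 at 6 h, 12.94, 12.77 and 12.71 at 12 h, and 11.85, 11.75 and 11.79 at 24 h. All 24 h arrays were more than 1 below the DMSO arrays, and at 12 h in Caki-1 replicate 1 had not moved while replicates 2 and 3 had. The 24 h fall was 2.19-fold in Caki-1 (-1.13 ± 0.11, adjusted p = 3.34e-07) and 2.65-fold in 769-P (-1.41 ± 0.07, adjusted p = 8.27e-11). PSMD2 was the most changed gene in 769-P, and the difference between the lines did not pass (0.28 ± 0.14, adjusted p = 0.121), but did with arrays centred on their 75th percentile (0.36, adjusted p = 0.047) and with the replicate number as a block (0.28, adjusted p = 0.0452).

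PSMD1 changed by -1.11 ± 0.12 (adjusted p = 1.62e-06) and -1.02 ± 0.14 (adjusted p = 1.51e-05). PSMD4, a ubiquitin receptor, first rose, at 6 h in Caki-1 (0.22 ± 0.06, adjusted p = 0.0126) and at 12 h in 769-P (0.27 ± 0.08, adjusted p = 0.00876). In 769-P it was lower at 24 h than at 6 h (-0.40 ± 0.08, adjusted p = 0.000518). At 24 h PSMD4 was at -0.14 ± 0.06 in Caki-1 (adjusted p = 0.05735) and -0.20 ± 0.08 in 769-P (adjusted p = 0.0377), and the second call was lost without the DMSO array of replicate 1 (adjusted p = 0.171) or the 24 h array of replicate 1 (adjusted p = 0.197), with quantile normalization (-0.14, adjusted p = 0.1527) and without the intensity trend (adjusted p = 0.0718). The 6 h call in Caki-1 was lost without the DMSO array of replicate 3 (adjusted p = 0.0637).

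All 6 measured lid genes fell at 24 h in both lines, with medians of -0.82 and -0.64. PSMD14, the deubiquitinase of the lid, had signals in Caki-1 of 12.09, 12.00 and 12.03 under DMSO, 12.02, 12.01 and 12.00 at 6 h, 11.72, 11.19 and 11.21 at 12 h, and 10.67, 10.73 and 10.73 at 24 h. Signals in 769-P were 12.57, 12.45 and 12.49 under DMSO, 12.59, 12.52 and 12.55 at 6 h, 12.33, 12.28 and 12.19 at 12 h, and 11.63, 11.61 and 11.66 at 24 h. From 12 h on, every treated array lay below every DMSO array of its line. The 24 h fall was 2.51-fold in Caki-1 (-1.33 ± 0.10, adjusted p = 3.11e-08) and 1.83-fold in 769-P (-0.87 ± 0.05, adjusted p = 1.425e-09).

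The structural lid genes differed in their timing. PSMD12 had fallen by 6 h in both lines (-0.26 ± 0.08, adjusted p = 0.0291, and -0.39 ± 0.07, adjusted p = 0.000281) and was at -0.88 ± 0.08 and -0.77 ± 0.07 by 24 h. The 6 h call of PSMD12 in Caki-1 was lost without the intensity trend (adjusted p = 0.06), without the DMSO array of replicate 2 or 3 and without the 6 h array of replicate 1 (adjusted p 0.0724 to 0.1496). PSMD11 was at -0.07 ± 0.10 and -0.17 ± 0.13 at 6 h, and its 24 h changes were -1.16 ± 0.10 and -0.91 ± 0.13. PSMD3 and PSMD6 changed by -0.76 ± 0.09 and -0.73 ± 0.08 in Caki-1 and by -0.51 ± 0.11 and -0.35 ± 0.06 in 769-P. PSMD8 had the smallest change of the lid, -0.28 ± 0.05 and -0.29 ± 0.08.

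All 3 chaperones of the core fell at 24 h in both lines, and of the 3 chaperones of the base 2 fell in Caki-1 and 1 in 769-P. PSMG1, which pairs with PSMG2 to start the alpha ring, had signals in Caki-1 of 11.42, 11.55 and 11.74 under DMSO, 11.20, 11.28 and 11.22 at 6 h, 10.73, 10.61 and 10.59 at 12 h, and 10.17, 10.05 and 10.15 at 24 h. In 769-P they were 11.27, 11.21 and 10.98 under DMSO, 10.87, 10.79 and 10.63 at 6 h, 10.30, 10.15 and 10.11 at 12 h, and 10.20, 9.93 and 10.04 at 24 h. No treated array reached the DMSO range at any time in either line. PSMG1 fell at 6 h (-0.34 ± 0.07, adjusted p = 0.0036, and -0.39 ± 0.09, adjusted p = 0.00436) and by 24 h had fallen 2.72-fold in Caki-1 (-1.45 ± 0.07, adjusted p = 5.75e-10) and 2.14-fold in 769-P (-1.10 ± 0.09, adjusted p = 6.15e-08).

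Its partner PSMG2 had a smaller change, -0.30 ± 0.04 and -0.18 ± 0.05 at 24 h, after a rise in 769-P at 6 h (0.15 ± 0.05, adjusted p = 0.0408). The 24 h call of PSMG2 in 769-P was lost with quantile normalization (-0.10, adjusted p = 0.0864), and the 6 h call was lost with arrays centred on their median (0.12, adjusted p = 0.0917), with no filter (adjusted p = 0.0638), without the trend (adjusted p = 0.1201) and without any 1 of 6 arrays. POMP, which matures the beta ring, changed by -0.66 ± 0.07 and -0.32 ± 0.08. Of the base chaperones, PSMD9 was at -0.41 ± 0.06 and -0.08 ± 0.08, PSMD5 at -0.12 ± 0.06 and -0.44 ± 0.10, and PSMD10 (gankyrin) at -0.24 ± 0.05 and 0.11 ± 0.06. PSMD10 rose in 769-P at 6 h (0.20 ± 0.06, adjusted p = 0.016) and 12 h (0.23 ± 0.06, adjusted p = 0.00334), the 6 h call being lost without the 6 h array of replicate 2 (adjusted p = 0.0741), and a dimmer probe set of PSMD10 went the other way there at 24 h, at -0.25.

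The activators moved apart from each other. PSME3, the subunit of a nuclear activator that works without ubiquitin, had the largest change of the 38 genes in Caki-1 with the probe set used. Its signals there were 10.06, 10.08 and 10.16 under DMSO, 9.68, 9.43 and 9.42 at 6 h, 8.96, 8.68 and 8.60 at 12 h, and 8.41, 8.25 and 8.03 at 24 h. Those in 769-P were 9.45, 9.35 and 9.28 under DMSO, 9.09, 8.97 and 8.80 at 6 h, 8.28, 8.37 and 8.04 at 12 h, and 8.14, 8.22 and 8.15 at 24 h. Every treated array was below the DMSO arrays from 6 h on. PSME3 fell by 3.65-fold in Caki-1 at 24 h (-1.87 ± 0.11, adjusted p = 2.27e-09) and by 2.28-fold in 769-P (-1.19 ± 0.10, adjusted p = 5.44e-08), and at 6 h it was already at -0.59 ± 0.11 (adjusted p = 0.001135) and -0.40 ± 0.10 (adjusted p = 0.005545). The mean of its 3 probe sets gave smaller 24 h changes, -1.23 and -0.80. With probe sets averaged, PSMG1 (-1.45), PSMD14 (-1.36) and PSMD2 (-1.24) changed more than PSME3 in Caki-1.

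PSME1 and PSME2 encode the partner subunits of the interferon-inducible activator, and their transcripts parted. PSME1 in Caki-1 had signals of 10.83, 10.90 and 10.80 under DMSO, 10.88, 10.99 and 10.95 at 6 h, 10.99, 11.21 and 11.25 at 12 h, and 11.23, 11.26 and 11.30 at 24 h. The 769-P arrays gave 10.93, 10.75 and 10.84 under DMSO, 11.12, 11.04 and 11.09 at 6 h, 11.12, 11.31 and 11.20 at 12 h, and 11.10, 10.98 and 11.001 at 24 h. All treated arrays from 12 h on lay above the DMSO arrays of their line. PSME1 rose by 0.42 ± 0.07 at 24 h in Caki-1 (adjusted p = 5.51e-05) and by 0.19 ± 0.07 in 769-P (adjusted p = 0.0257), with a higher point there at 12 h (0.38 ± 0.07, adjusted p = 0.000248).

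The 24 h rise of PSME1 in 769-P was positive and passed the test under the median, quantile and 75th percentile scalings. It lost its call without the 24 h array of replicate 1 (0.15, adjusted p = 0.0914), and without the DMSO array of replicate 2 or 3 (adjusted p = 0.127 and 0.0532). PSME2 was at -0.15 ± 0.06 and -0.15 ± 0.09 at 12 h, neither past the test, and fell to -0.79 ± 0.06 in Caki-1 (adjusted p = 2.45e-08) and -0.95 ± 0.09 in 769-P (adjusted p = 2.72e-07) at 24 h. PSME4, a large single-chain activator, changed by -0.40 ± 0.08 in Caki-1 (adjusted p = 0.000489) and -0.12 ± 0.07 in 769-P (adjusted p = 0.151). With the probe set used, the inhibitor PSMF1 passed no test against DMSO at any time. At 24 h it was at -0.17 ± 0.08 (adjusted p = 0.0973) in Caki-1 and 0.03 ± 0.08 (adjusted p = 0.823) in 769-P. The mean of its 6 probe sets gave -0.28 in 769-P (adjusted p = 0.00253). In Caki-1 all 6 probe sets were negative at 24 h, from -0.07 to -0.71.

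Probe sets of the same gene can read different transcript ends. In each line 28 of the 38 genes had several probe sets above the brightness filter. At 24 h these pointed the same way for 26 genes in Caki-1, with PSMB7 and PSMD8 as exceptions, and for 23 in 769-P, with PSMA1, PSMB4, PSMD10, PSME4 and PSMF1 as exceptions.

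The fall was larger in Caki-1 for many genes. At 24 h the difference of the changes, Caki-1 minus 769-P, was negative for 31 of the 38 genes, with a median of -0.24 (all genes -0.01). It passed the interaction test for 17 genes in that direction (background 22.1%) and for PSMD5 in the other (background 13.8%). The PSMD5 call was lost with arrays centred on their median (0.28, adjusted p = 0.0537) or with the mean of its probe sets (0.27, adjusted p = 0.1044), and without any 1 of 6 arrays (0.19 to 0.30, adjusted p 0.0628 to 0.1174). Of these 18 calls, those of PSMA3, PSMA4, PSMB3, PSMB6, PSMD6, PSMD14 and PSME3 passed in all 9 alternatives and without each of the 24 arrays. The largest of the 17 were PSME3 (-0.68 ± 0.15, adjusted p = 0.00125), PSMB3 (-0.52 ± 0.11, adjusted p = 0.000949) and PSMA3 (-0.48 ± 0.12, adjusted p = 0.00349). With probe sets averaged, PSME3 was at -0.42, PSMB3 at -0.52 and PSMA3 at -0.53, so their order depends on the probe set. Of the 17 genes, 13 fell in both lines. Core genes were 7 of the 17, 5 of them in the beta ring. This share was close to that of core genes among all measured genes, 13 of 38.

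This count moved with 1 array and with the scaling. Without the 769-P array of replicate 1 at 24 h, 11 genes passed in the negative direction. With arrays centred on their 75th percentile 10 passed, as the split of all called genes went from 1780 higher and 2849 lower to 2390 and 2229. At 6 h none passed in either direction (background 4.42% lower and 3.68% higher). At 12 h 3 passed as lower, PSMC2, PSMD14 and PSMG2 (background 10.3%), and none as higher (background 8.67%). Without the Caki-1 array of replicate 1 at 12 h this became 14, and without replicate 2 or 3 it became 0. It became 9 without the 769-P DMSO array of replicate 1, 5 without the Caki-1 array of replicate 1 at 24 h, and 1 without any of 9 other arrays. All called genes at 12 h split as 1115 higher and 1319 lower, and as 1427 and 1021 with the 75th percentile centring.

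Under DMSO, Caki-1 was higher than 769-P for 16 of the 38 genes (background 28.8%) and lower for 7 (background 29.9%). Genes called in either direction were about as common as over all genes. The median difference was 0.12 (all genes -0.04). The widest differences were PSME3 (0.74 ± 0.11), PSMD12 (0.67 ± 0.07), PSMB4 (0.61 ± 0.06) and PSMD4 (0.60 ± 0.07) on the Caki-1 side, and PSMF1 (-0.78 ± 0.08), PSMC2 (-0.68 ± 0.09) on the 769-P side. Among the catalytic subunits, PSMB5 was higher in Caki-1 (0.58 ± 0.06) while PSMB6 was lower (-0.50 ± 0.06), and PSMB7 did not pass the test (0.09 ± 0.06, adjusted p = 0.218).

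The genes around the proteasome were read from lists of related function. The list of the NFE2L1 axis of proteasome gene control holds NFE2L1, related factors and other genes such as DDI2 and NGLY1. Its counts were near those over all genes. Of 7 tested genes 2 rose and 2 fell at 24 h in Caki-1 (background 32.9% and 29.9%), and 3 rose and 1 fell in 769-P (background 31.1% and 24.6%). NFE2L1 itself had signals in Caki-1 of 10.70, 10.61 and 10.63 under DMSO, 10.65, 10.63 and 10.53 at 6 h, 10.53, 10.20 and 10.27 at 12 h, and 10.30, 10.16 and 10.25 at 24 h. The 769-P signals were 9.83, 9.66 and 9.75 under DMSO, 9.98, 9.95 and 9.89 at 6 h, 10.03, 10.12 and 10.07 at 12 h, and 10.47, 10.30 and 10.12 at 24 h. The lines were apart under DMSO and overlapped at 24 h.

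NFE2L1 fell in Caki-1 at 24 h (-0.41 ± 0.08, adjusted p = 0.000386) and rose in 769-P (0.55 ± 0.08, adjusted p = 3.3e-05), and the lines differed by -0.96 ± 0.12 (adjusted p = 8.83e-07). With the mean of its 6 probe sets the changes were -0.30 (adjusted p = 0.00455) and 0.23 (adjusted p = 0.048). The related factor NFE2L2, the main driver of antioxidant genes, rose in both lines from 6 h on, to 1.02 ± 0.05 in Caki-1 and 0.62 ± 0.06 in 769-P at 24 h. Its group means under DMSO and at 24 h were 11.75 ± 0.08 and 12.77 ± 0.02 (SD, n = 3) in Caki-1 and 12.13 ± 0.09 and 12.75 ± 0.05 in 769-P.

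NFE2L3, the third member of this factor family, fell in both lines, by 24 h at -1.50 ± 0.22 (adjusted p = 3.06e-05) and -0.79 ± 0.12 (adjusted p = 3.38e-05). Its fall was larger at 6 h than at 24 h in 769-P, at -1.29 ± 0.12, and the direct comparison of 24 h with 6 h there was 0.50 ± 0.12 (adjusted p = 0.00285).

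The inducible catalytic subunits, which replace the constitutive ones in the immunoproteasome, were described separately. Of the 3 tested, 2 rose at 24 h in Caki-1 (background 32.9%), and 1 fell in 769-P (background 24.6%). PSMB9 in Caki-1 had signals of 10.21, 10.25 and 10.14 under DMSO, 10.11, 10.32 and 10.20 at 6 h, 10.38, 10.78 and 10.80 at 12 h, and 11.09, 11.02 and 10.84 at 24 h. Signals in 769-P were 8.90, 8.39 and 8.36 under DMSO, 9.17, 8.69 and 8.94 at 6 h, 8.76, 8.72 and 8.61 at 12 h, and 8.43, 7.99 and 7.85 at 24 h. The 24 h arrays were clear of the DMSO arrays in Caki-1 and overlapped them in 769-P.

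PSMB9 rose by 0.78 ± 0.10 in Caki-1 (adjusted p = 7.95e-06) and fell by 0.46 in 769-P (SE 0.16, adjusted p = 0.0252), where the call was lost without the DMSO array of replicate 1 (-0.28, adjusted p = 0.151) or without the 24 h array of replicate 2 or 3 (adjusted p = 0.08 and 0.12). At 6 h PSMB9 in 769-P did not pass (0.38), but did with the replicate number as a block (adjusted p = 0.0077). PSMB8 rose by 0.41 ± 0.07 in Caki-1 (adjusted p = 7.92e-05) from 11.19 ± 0.01 to 11.60 ± 0.06 (SD, n = 3), and in 769-P it was at -0.02 ± 0.06 (adjusted p = 0.793). PSMB10 passed no test at 24 h, at 0.10 ± 0.07 (adjusted p = 0.2105) and 0.05 ± 0.12 (adjusted p = 0.728).

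**Figure D5:**
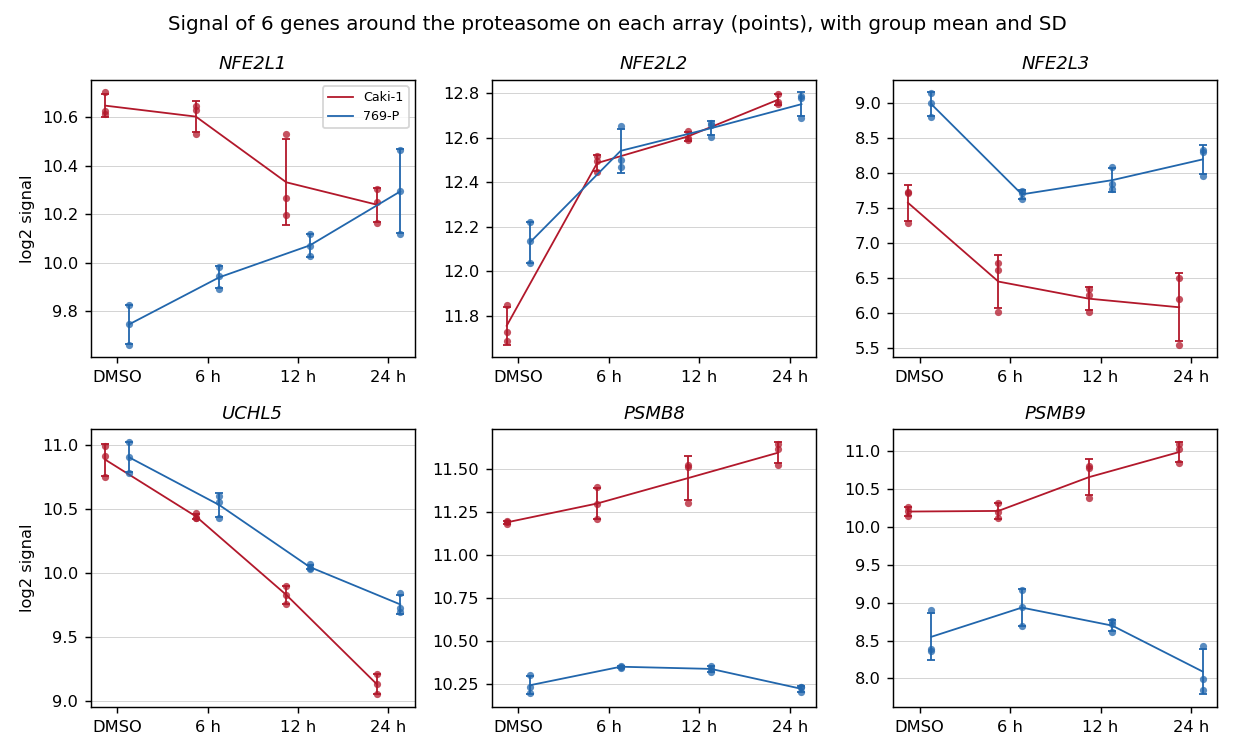
Log2 signal (vertical axis) of 6 genes around the proteasome on each array (points) under DMSO and after 6, 12 and 24 h, with group means joined by lines and SD bars, Caki-1 in red and 769-P in blue; each panel has its own axis range. NFE2L1 goes down in Caki-1 and up in 769-P, NFE2L2 goes up in both, and PSMB9 separates the lines.

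Most of the proteasome-bound enzymes and further assembly factors fell. Of 10 measured genes, 8 fell and 1 rose at 24 h in Caki-1 (median -0.82, background 29.9% lower and 32.9% higher). In 769-P, 6 fell and 1 rose (median -0.36, background 24.6% lower and 31.1% higher). UCHL5, a deubiquitinase of the base, had signals in Caki-1 of 10.75, 10.92 and 10.99 under DMSO, 10.43, 10.43 and 10.47 at 6 h, 9.90, 9.76 and 9.83 at 12 h, and 9.21, 9.13 and 9.05 at 24 h. In 769-P they were 11.02, 10.91 and 10.79 under DMSO, 10.61, 10.56 and 10.43 at 6 h, 10.07, 10.04 and 10.03 at 12 h, and 9.84, 9.70 and 9.73 at 24 h. No treated array overlapped the DMSO arrays at any time. UCHL5 fell 3.38-fold in Caki-1 (-1.76 ± 0.07, adjusted p = 1.02e-10) and 2.22-fold in 769-P (-1.15 ± 0.07, adjusted p = 2.81e-09) at 24 h.

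PSMG3 and PSMG4, a further chaperone pair of the core, fell from 6 h on, the 6 h calls of PSMG3 being lost without any 1 of 4 arrays in each line (adjusted p up to 0.0659 in Caki-1 and 0.1133 in 769-P). PSMG4 reached -0.98 ± 0.11 and -1.11 ± 0.11 at 24 h, with group means under DMSO and at 24 h of 10.23 ± 0.07 and 9.25 ± 0.13 (SD, n = 3) in Caki-1 and 10.41 ± 0.15 and 9.30 ± 0.22 in 769-P. PSMG3 reached -1.07 ± 0.11 and -0.65 ± 0.12. The gene of the list that rose was AKIRIN2, which brings proteasomes into the nucleus, at 0.37 ± 0.08 in Caki-1 (adjusted p = 0.000885) and 0.61 ± 0.10 in 769-P (adjusted p = 5.92e-05) at 24 h; it was singled out after its values were seen.

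Ubiquitin and its supply changed less. Of 3 measured genes, UBA1, the main ubiquitin-activating enzyme, rose in Caki-1 (0.29 ± 0.09, adjusted p = 0.00782; 0.13 and adjusted p = 0.206 with the mean of its probe sets) and was at -0.15 ± 0.12 in 769-P (adjusted p = 0.317). UBA6, a second activating enzyme, fell in both lines (-0.39 ± 0.10, adjusted p = 0.00249, and -0.24 ± 0.07, adjusted p = 0.00901). The ubiquitin gene UBB was at -0.04 ± 0.03 and -0.00 ± 0.04 and passed no test.

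Among the 8 measured shuttle factors and genes of the VCP segregase, which deliver substrates to the proteasome, 6 fell and 1 rose at 24 h in Caki-1 (median -0.38, background 29.9% lower and 32.9% higher), and 6 fell and none rose by limma in 769-P (median -0.28, background 24.6% lower and 31.1% higher). UFD1, a cofactor of VCP, changed by -0.84 ± 0.10 and -0.54 ± 0.09, and NSFL1C, another, by -0.60 ± 0.09 and -0.54 ± 0.11. UBQLN4, a ubiquitin shuttle, was at -0.13 ± 0.09 (adjusted p = 0.233) in Caki-1 and -0.53 ± 0.13 (adjusted p = 0.00302) in 769-P. VCP itself fell in both lines, by 0.34 and 0.22 on the log2 scale.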

How the data were processed

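RNA of 24 samples in 8 groups of 3 was hybridised to Affymetrix PrimeView arrays after 3' amplification with biotin labelling, per the labels' protocols. The values are log2 signals that the authors deposited, 1 per probe set and array. The submitters' processing notes name MAS5 without version or settings, and how arrays were scaled is not given in the sources used here. Of 49395 probe sets, 44988 name 1 gene in the platform annotation (joined by Entrez identifier to RefSeq on GRCh38.p14), 1832 name several, 2473 have no entry and 102 are controls. Genes entered a test if their mean lay above the 40th percentile of probe set means (5.38 in Caki-1, 5.36 in 769-P). This left 12423 genes in Caki-1, 12354 in 769-P and 12864 over both lines, and all 38 measured proteasome genes.

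Moderated tests were run in limma 3.58.1 (R 4.3.3, with the data.table package, 1.17.8) with an intensity trend and a mean per group. Each line was fitted on its 12 arrays (8 residual degrees of freedom), and the difference between the lines and the DMSO comparison on all 24 (16 degrees of freedom). P-values were two-sided, with Benjamini-Hochberg adjustment over every gene tested in a comparison. The scripts were tested on simulated data. The number of arrays limits the precision. Comparisons of a line with DMSO share the DMSO arrays.

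The proteasome genes and the other lists were chosen with earlier results of these data known. Values on every array were given for the 3 called genes with the largest rise and fall at 24 h in each line. They were also given for those with the 3 largest line differences and for PSMB5, PSMB6, PSMB7 and PSMD14. Of the other lists, NFE2L1 and up to 3 called genes of largest change were named. Some of these have array values, and others have group means or changes only. Promoter windows were searched for fixed letters. Alternatives were the scaling, the filter, the probe set of a gene, the variance model, the replicate number as a block, 1 fit of all arrays and leaving out each array. Equally numbered arrays deviated together (every correlation over 0.1) in 769-P at 6 h (0.11 to 0.36) and 24 h (0.12 to 0.17) and not in the other groups, where the lowest was -0.03, so the numbers pair arrays in part at most, from the data and not from the labels.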

Additional observations from a re-analysis of the deposited data

Results flagged for a closer look

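The results here passed the interaction test of the change in Caki-1 minus the change in 769-P (adjusted p under 0.05, 3 arrays per group), and no explanation was weighed. A negative value means a more negative change in Caki-1. At 24 h it was negative in the core for PSMA3 (-0.48), PSMA4 (-0.36), PSMB2 (-0.28), PSMB3 (-0.52), PSMB5 (-0.27), PSMB6 (-0.43) and PSMB7 (-0.31). In the base and lid it was negative for PSMC2 (-0.35), PSMC6 (-0.32), PSMD6 (-0.37) and PSMD14 (-0.46). Among chaperones it was negative for POMP (-0.33), PSMG1 (-0.35), PSMD9 (-0.33) and PSMD10 (-0.36) and positive for PSMD5 (0.32). Among activators it was negative for PSME3 (-0.68) and PSME4 (-0.29).

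At 12 h the difference passed for PSMC2 (-0.37), PSMD14 (-0.43) and PSMG2 (-0.18). Among the surrounding genes at 24 h it was -0.96 for NFE2L1, 0.40 for NFE2L2, -0.71 for NFE2L3, 0.43 for PSMB8, 1.24 for PSMB9, -0.43 for PSMG3, -0.60 for UCHL5 and 0.44 for UBA1. At 12 h it was -0.64 for NFE2L1, 0.34 for NFE2L2, 0.47 for PSMG4 and 0.50 for UBQLN4, and at 6 h it was 0.32 for NFE2L2.

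Of the 26 differences at 24 h, 11 passed in all 9 alternatives and without each of the 24 arrays: PSMA3, PSMA4, PSMB3, PSMB6, PSMD6, PSMD14, PSME3, NFE2L1, NFE2L2, PSMB9 and UCHL5. With arrays centred on their 75th percentile the others that did not pass were PSMB2 (-0.20, adjusted p = 0.1441), PSMB5 (-0.18, adjusted p = 0.1096), PSMC2 (-0.27, adjusted p = 0.1008), PSMC6 (-0.23, adjusted p = 0.1277), POMP (-0.25, adjusted p = 0.1045), PSMG1 (-0.26, adjusted p = 0.0921), PSME4 (-0.20, adjusted p = 0.1381), PSMG3 (-0.34, adjusted p = 0.0763) and NFE2L3 (-0.62, adjusted p = 0.0652). When the probe sets of a gene were averaged they were PSMB2 (-0.31, adjusted p = 0.0781), PSMB5 (-0.22, adjusted p = 0.0608), PSMB7 (-0.16, adjusted p = 0.122), PSMC2 (-0.14, adjusted p = 0.3132), PSMC6 (-0.10, adjusted p = 0.4526), PSMD5 (0.27, adjusted p = 0.1044), PSMD9 (-0.21, adjusted p = 0.0792), PSMD10 (-0.09, adjusted p = 0.4498), PSMB8 (0.20, adjusted p = 0.1233) and UBA1 (0.25, adjusted p = 0.1435). Centred on the median, PSMD5 did not pass (0.28, adjusted p = 0.0537). With no filter PSMG3 and NFE2L3 did not pass (adjusted p = 0.0583 and 0.0522), and without the intensity trend PSMB2, PSMC2 and NFE2L3 did not (adjusted p = 0.0593, 0.0507 and 0.0549), nor NFE2L3 with the robust fit (adjusted p = 0.0514).

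Leaving out 1 array ended the 24 h call of PSMB5 and of POMP for 1 array each, the 769-P array of replicate 1 at 24 h (-0.20, adjusted p = 0.0604, and -0.27, adjusted p = 0.0573). It ended the call of UBA1 for 3 arrays (adjusted p up to 0.07), of PSMG1 for 4 (up to 0.1163), of PSME4 for 4 (up to 0.0955), of PSMC6 for 5 (up to 0.0822), of PSMB2 for 6 (up to 0.0782), of PSMC2 for 6 (up to 0.0947), of PSMD5 for 6 (up to 0.1174), of NFE2L3 for 9 (up to 0.1746) and of PSMG3 for 10 (up to 0.1392).

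At 12 h, NFE2L1 and NFE2L2 passed in all of these, as did NFE2L2 at 6 h. PSMD14 did not pass without 2 of the arrays (adjusted p up to 0.0525). PSMC2 did not pass in 5 of the 9 alternatives (adjusted p up to 0.5007) and without 14 arrays. PSMG2 did not in 4 (up to 0.2653) and without 16 arrays, PSMG4 in 2 (0.20 with averaged probe sets, adjusted p = 0.2532, and adjusted p = 0.0545 without the trend) and without 7 arrays, and UBQLN4 in 3 (adjusted p 0.0505 to 0.0561) and without 10 arrays.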

How the results depend on the processing

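The count of genes lower at 24 h was 33 to 37 in Caki-1 and 28 to 32 in 769-P over the 10 alternatives with all arrays, and 34 to 35 and 29 to 31 with 1 array left out. Centred on the median, genes higher in 769-P at 6 h went from 5 to 3 and the line difference at 24 h had 0 higher in place of 1. Quantile normalization gave 2 higher in 769-P at 24 h in place of 1. Centred on the 75th percentile, Caki-1 at 12 h had 2 higher in place of 1, and the line difference had 1 lower at 12 h in place of 3, and 3 higher and 10 lower at 24 h in place of 1 and 17. With no filter, 3 were higher in 769-P at 6 h and 1 lower in the line difference at 12 h. With the mean of all probe sets, Caki-1 at 12 h had 2 higher, and the line difference had 6 lower at 12 h and 0 higher at 24 h. That setting also turned PSMA1 in 769-P at 24 h (0.16, from -0.34), PSMF1 in 769-P at 24 h (-0.28, from 0.03) and against 6 h (-0.18, from 0.20), and PSMD9 between the lines under DMSO (-0.32, from 0.13). Without the intensity trend, 2 were higher in 769-P at 6 h and 3 at 12 h, and 1 was lower in the line difference at 12 h. The cause of these shifts was not tested. With the replicate number as a block, 1 gene was higher in 769-P at 24 h against 6 h in place of 0, and the line difference had 10 lower at 12 h and 3 higher at 24 h. Leaving out 1 array gave 0 to 3 higher in Caki-1 at 6 h, 1 to 8, 3 to 5 and 0 to 1 higher in 769-P at 6, 12 and 24 h, and 0 to 1 higher there at 24 h against 6 h. For the line difference it gave 0 to 14 lower at 12 h, and 0 to 3 higher and 11 to 20 lower at 24 h. NFE2L3 was not tested in Caki-1 under the 60th percentile filter. Probe sets near background limit what can be said of dim genes.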
